A study of Homo sapiens with 24 samples.

Results

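IRF1, IRF9, USP18, IFITM1 and IFITM2 are human genes linked to the interferon response, and they were followed here in HepG2 cells whose labels list no interferon treatment. They were chosen by gene symbol with earlier results of these data known, so counts among the 5 are descriptive. The platform annotation named 1 probe set for each, so 5 of 14884 named genes and 5 of 53617 probe sets are described. HepG2 cells derive from a human liver cancer and retain many features of hepatocytes, and their RNA was measured on 24 whole-transcript arrays. The cells received oncostatin M (OSM), a cytokine, at 100 ng/mL for 1 h (3 arrays) or 24 h (3), or BRD8518, a small molecule known by its code name, at 1 uM for 1 h (3), 6 h (2) or 24 h (3). Vehicle cells received DMSO for 1 h (3 arrays), 6 h (4) or 24 h (3), and every well held 0.25% DMSO. All arrays come from 1 cell line, and the labels do not say that replicates were separate cultures, so p-values rest on array-to-array spread that may be only technical. OSM at 6 h is not analysed here.

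Interferons act through receptors whose JAK kinases phosphorylate STAT proteins. Activated STAT dimers bind GAS elements in DNA, whereas the complex ISGF3, of which IRF9 is a subunit, binds the interferon-stimulated response element (ISRE). OSM signals through receptors that contain the IL6ST subunit and also uses JAK kinases, mainly toward STAT3. IRF1 is a transcription factor whose own gene is a classic target of interferon signalling. USP18 removes the ubiquitin-like protein ISG15 from its targets and restrains signalling at the type I interferon receptor. IFITM1 and IFITM2 are small membrane proteins that hinder the entry of viruses into cells.

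Promoters of 3 of the 5 genes, IRF1, IRF9 and IFITM1, were in the RefSeq promoter table, and they are shown because these genes changed under a cytokine that acts through STAT proteins. The stretch printed runs from 150 bases before the annotated start to 20 bases after it. Capitals mark matches, on either strand, to a GAS core, TTCNNNGAA, or an ISRE core, which is GAAA, any 2 bases and GAAA again.
IRF1 (GRCh38.p14, chr5:132490754-132490923, - strand): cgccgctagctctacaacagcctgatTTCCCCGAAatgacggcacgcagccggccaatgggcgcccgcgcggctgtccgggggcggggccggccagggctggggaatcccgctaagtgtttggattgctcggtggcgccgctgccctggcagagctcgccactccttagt
IRF9 (GRCh38.p14, chr14:24161115-24161284, + strand): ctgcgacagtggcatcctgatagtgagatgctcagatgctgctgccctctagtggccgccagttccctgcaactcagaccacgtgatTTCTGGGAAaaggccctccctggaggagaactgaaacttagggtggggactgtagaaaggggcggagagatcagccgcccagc
IFITM1 (GRCh38.p14, chr11:313890-314059, + strand): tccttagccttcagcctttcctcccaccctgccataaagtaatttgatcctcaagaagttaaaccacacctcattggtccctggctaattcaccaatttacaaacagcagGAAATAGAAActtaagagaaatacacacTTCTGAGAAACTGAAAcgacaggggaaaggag
Over the table's full window of 300 bases, IRF1 had 1 GAS match, at positions -124 to -116 from the start, and IRF9 had 1, at -63 to -55. IFITM1 had 2 ISRE matches, at -40 to -31 and at -6 to 4, and a GAS match at -12 to -4 that overlaps the ISRE match nearer the start. Of 35116 promoters of that length, 7.66% held a GAS core match and 3.57% an ISRE core match, so a single match is not rare. At least 2 ISRE core matches, as in IFITM1, were held by 0.259%. A match describes the sequence and does not show that a factor binds there.

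Levels are given as deposited, on a log2 scale, and a change is the mean of one group minus that of another, with the standard error (SE) of the fit. Adjusted p values come from limma across the 14884 genes with Benjamini-Hochberg adjustment, and a gene passed with an adjusted p under 0.05. Arrays have no read depth, and their number limits the precision: against DMSO, a gene's change had a median SE of 0.11 to 0.12. The label was checked against 12 hepatocyte markers, and the 10 that were measured had mean levels of 8.07 to 12.5. Of 13 markers of other cell types, the 7 measured had means of 4.96 to 10.8. The ranges overlapped, with SOX9 (10.8) and CD68 (9.81) among the hepatocyte levels, so the check is limited. DMSO replicate 2 at 6 h lay apart, with a median absolute difference of 0.27 from the rest of its group, against 0.076 to 0.17 for the other 23 arrays. Changes of the 5 genes at 6 h are therefore also given without it.

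**Figure D1:**
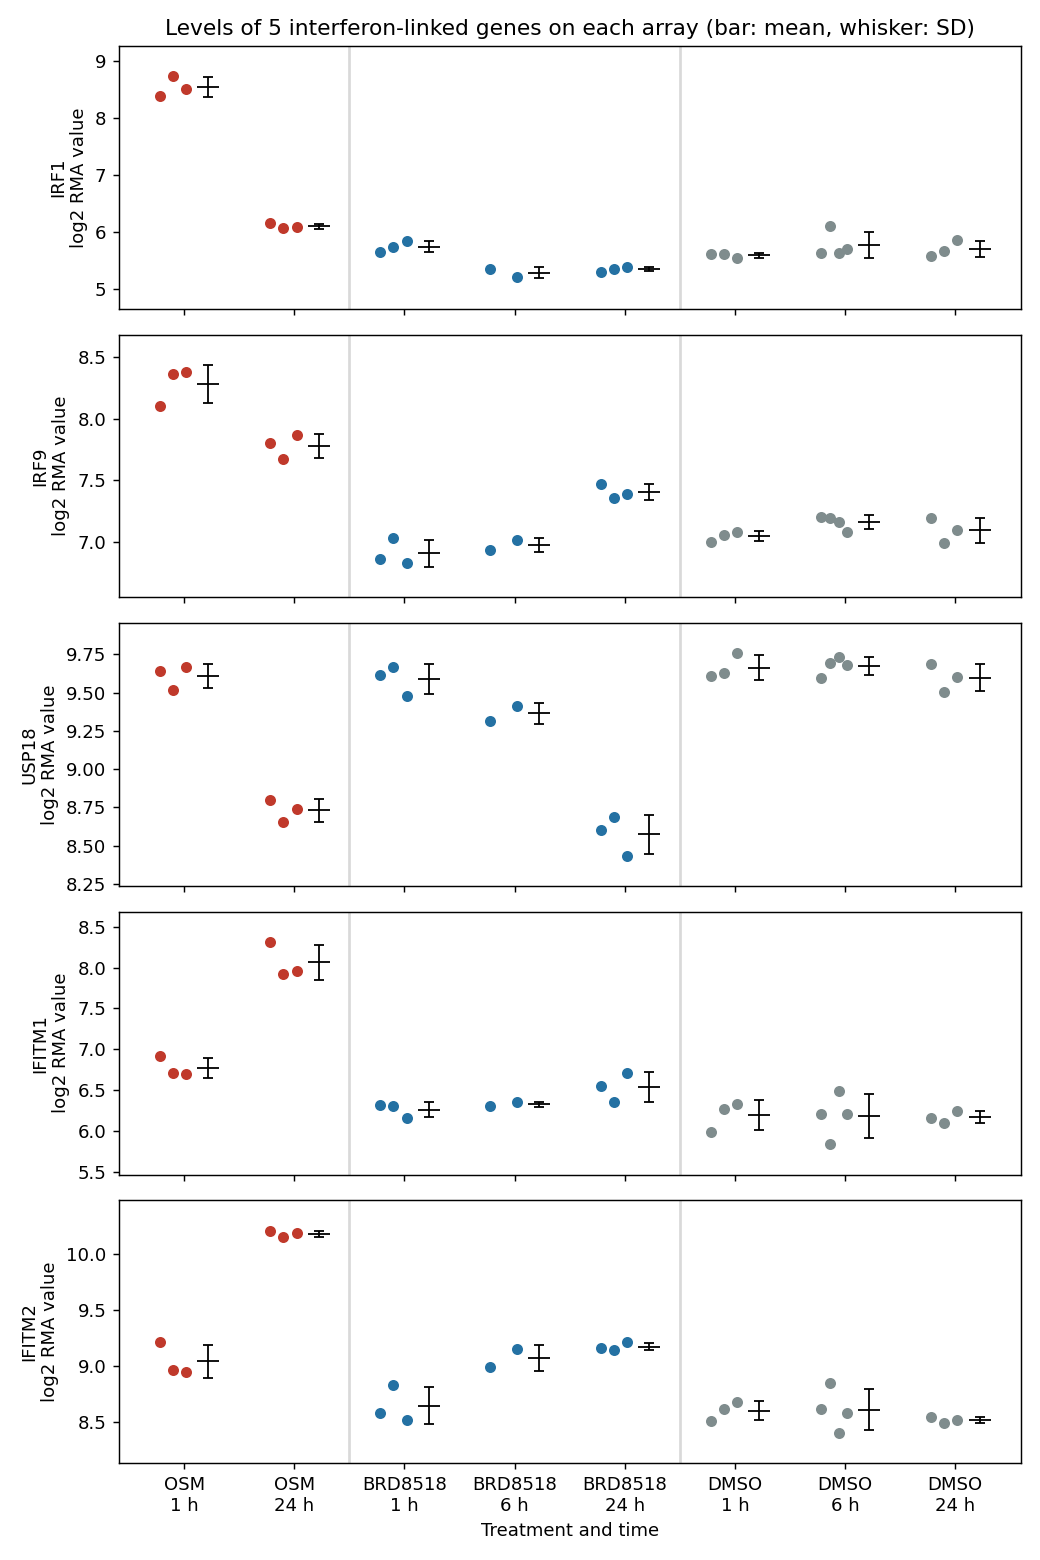
Log2 RMA values (y axis) of IRF1, IRF9, USP18, IFITM1 and IFITM2 on each of 24 arrays, by treatment and time (x axis). Points are arrays, and the bar and whisker beside them give the mean and SD. IRF1 was highest at 1 h of OSM, IFITM1 and IFITM2 at 24 h of OSM, and USP18 was lowest at 24 h of BRD8518 and of OSM.

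After 1 h of OSM, IRF1, IRF9, IFITM1 and IFITM2 rose, and USP18 did not pass. The IRF1 value was 8.38, 8.72 and 8.50 on the OSM arrays, against 5.62, 5.61 and 5.54 on the DMSO arrays of that time. The groups were far apart, a 7.7-fold difference (log2 change 2.94, SE 0.11, 95% confidence interval 2.72 to 3.17, n = 3 each, limma adjusted p = 2.09e-14). It ranked 5 of the 14884 genes by size of rise. In bulk RNA, more cells that make a transcript and more of it per cell cannot be told apart. For IRF9, the DNA-binding subunit of ISGF3, the OSM arrays read 8.10, 8.36 and 8.37 and the DMSO arrays 7.002, 7.05 and 7.08. That was 2.35-fold higher (1.23, SE 0.08, limma adjusted p = 6.39e-10), without overlap.

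The IFITM genes moved less at 1 h. IFITM1 stood at 6.91, 6.71 and 6.70 with OSM, against 5.98, 6.27 and 6.32 with DMSO, and the groups did not overlap (1.5-fold, log2 change 0.58, SE 0.14, limma adjusted p = 0.0162). IFITM2 stood at 9.21, 8.96 and 8.95 with OSM, against 8.51, 8.62 and 8.68 with DMSO, again with no overlap (1.35-fold, 0.44, SE 0.10, limma adjusted p = 0.014). OSM replicate 1 was the highest array for both. Without it the IFITM1 change was 0.51 and the IFITM2 change 0.35, and neither passed, nor did they without DMSO replicate 1 (0.48 and 0.39). USP18 read 9.64, 9.52 and 9.67 with OSM and 9.61, 9.63 and 9.76 with DMSO, with overlapping arrays (-0.05, 95% interval -0.22 to 0.11, limma adjusted p = 0.918). In all, 4 of the 5 genes rose and 0 fell at 1 h of OSM, where 2.03% of all genes rose and 0.813% fell.

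By 24 h of OSM the order among the genes had turned over. IFITM1 was at 8.31, 7.93 and 7.95 with OSM, against 6.15, 6.10 and 6.24 with DMSO. Each OSM array was above every DMSO array of any time (3.73-fold, log2 change 1.90, SE 0.14, 95% interval 1.62 to 2.18, limma adjusted p = 1.27e-09). The IFITM2 levels were 10.20, 10.15 and 10.18 with OSM, against 8.55, 8.49 and 8.52 with DMSO (3.16-fold, 1.66, SE 0.10, limma adjusted p = 8.79e-11). The spread within both groups was small beside that gap, and IFITM1 ranked 11 and IFITM2 ranked 20 among all genes by size of rise.

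The IRF genes stood nearer their DMSO levels by 24 h. IRF9 still read 7.80, 7.67 and 7.86 with OSM, against 7.19, 6.99 and 7.10 with DMSO (1.61-fold, log2 change 0.69, SE 0.08, limma adjusted p = 4.52e-06), without overlap. IRF1 was 6.15, 6.07 and 6.08 with OSM and 5.59, 5.67 and 5.85 with DMSO (1.32-fold, 0.40, SE 0.11, limma adjusted p = 0.0183). The OSM arrays lay above the 24 h DMSO arrays, but only 1 of 3 lay above the highest of all 10 DMSO arrays, 6.10. That array was DMSO replicate 2 at 6 h, which lay apart. The next highest DMSO array, at 5.85, was below all 3 OSM arrays. The IRF1 call was also lost without OSM replicate 1 or 3, or DMSO replicate 1 or 2, at changes of 0.37, 0.41, 0.34 and 0.38.

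USP18 moved the other way at 24 h of OSM. Its arrays read 8.80, 8.65 and 8.74 with OSM, against 9.68, 9.51 and 9.60 with DMSO. It fell 1.83-fold (log2 change -0.87, SE 0.08, 95% interval -1.04 to -0.70, limma adjusted p = 8.89e-08), and all 3 OSM arrays were below each of the 10 DMSO arrays. So 4 of the 5 genes rose and 1 fell at 24 h of OSM, where 4.6% of all genes rose and 5.65% fell.

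The difference between the early and late OSM effects was tested for each gene. The change against DMSO was smaller at 24 h than at 1 h for IRF1 (-2.55, SE 0.15, limma adjusted p = 4.68e-10) and IRF9 (-0.55, SE 0.12, limma adjusted p = 0.00789). It was larger for IFITM1 (1.32, SE 0.19, limma adjusted p = 0.000127) and IFITM2 (1.22, SE 0.14, limma adjusted p = 7.71e-06). For USP18 it was more negative (-0.81, SE 0.11, limma adjusted p = 8.84e-05). The 5 genes thus showed 3 courses under OSM: early and receding, late and rising, and late and falling. All 5 passed this test, where 3.37% of all genes did. That count is descriptive, as the genes were chosen with earlier results of these data known.

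**Figure D2:**
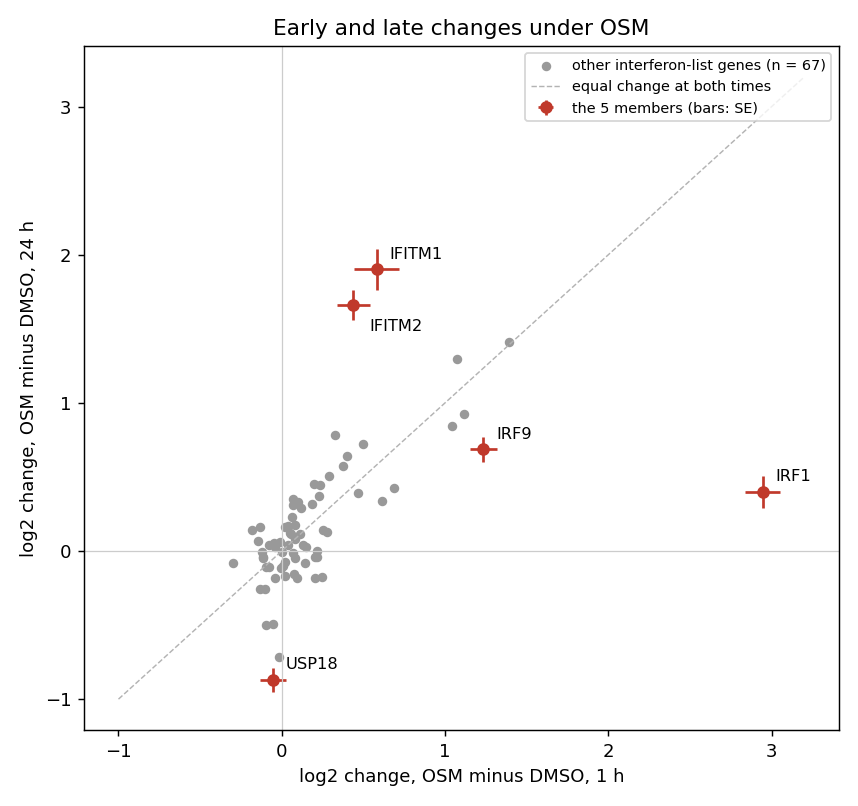
Log2 change under OSM against time-matched DMSO at 1 h (x axis) and 24 h (y axis) for the 5 genes (red, bars give the SE) and 67 other measured genes of the interferon lists (grey). IRF1 and IRF9 lie below the line of equal change, IFITM1 and IFITM2 above it, and USP18 is near 0 at 1 h and at -0.87 at 24 h.

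BRD8518 for 1 h left all 5 genes without a call. The IRF1 arrays read 5.65, 5.74 and 5.84 with BRD8518, against 5.62, 5.61 and 5.54 with DMSO (log2 change 0.15, 95% interval -0.07 to 0.38, limma adjusted p = 1). The changes of the other 4 genes lay between -0.14 (IRF9) and 0.07 (IFITM1), with overlapping arrays. Their intervals reached from -0.31 at the lowest to 0.35 at the highest. No unadjusted p was under 0.05 either, the lowest being 0.112 (IRF9), and of all genes 0.255% were called there.

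At 6 h of BRD8518, IFITM2 rose and IRF1 and USP18 fell. IFITM2 was 8.99 and 9.15 with BRD8518 (n = 2), against 8.61, 8.85, 8.40 and 8.58 with DMSO (n = 4), with no overlap (1.38-fold, log2 change 0.46, SE 0.11, limma adjusted p = 0.0039). IRF1 was 5.36 and 5.22 with BRD8518, against 5.63, 6.10, 5.63 and 5.70 with DMSO (1.39-fold lower, -0.48, SE 0.12, limma adjusted p = 0.00551). Its highest DMSO array was replicate 2, and without that array the change was -0.37 (limma adjusted p = 0.00438). USP18 was 9.31 and 9.41 with BRD8518, against 9.60, 9.69, 9.73 and 9.68 with DMSO (1.24-fold lower, -0.31, SE 0.09, limma adjusted p = 0.0152). Its arrays did not overlap either.

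Neither of the remaining genes passed at 6 h. IRF9 read 6.94 and 7.02 with BRD8518 and 7.20, 7.19, 7.16 and 7.08 with DMSO (-0.18, SE 0.09, limma adjusted p = 0.205), and IFITM1 had a change of 0.14 (SE 0.14, limma adjusted p = 0.623). At this time 1 of the 5 genes rose and 2 fell, where 5.62% of all genes rose and 8.86% fell. Without DMSO replicate 2 the changes were 0.54 for IFITM2, -0.31 for USP18, -0.17 for IRF9 and 0.025 for IFITM1, and each stayed on its side of the threshold. These calls rested on 2 BRD8518 arrays and were not secure. In a fit of the 6 h arrays alone none of the 3 passed (limma adjusted p from 0.173 to 0.211), and that fit called 452 genes in place of 2155. The IRF1 and IFITM2 calls were lost without BRD8518 replicate 2 (-0.41 and 0.38), and the USP18 call without either BRD8518 array (-0.26 without replicate 1 and -0.36 without replicate 2).

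At 24 h of BRD8518, USP18 showed the largest change of the 5. It read 8.60, 8.69 and 8.43 with BRD8518, against 9.68, 9.51 and 9.60 with DMSO. That was 2.03-fold lower (log2 change -1.02, SE 0.08, 95% interval -1.19 to -0.86, limma adjusted p = 1.47e-09), with all 3 arrays below each of the 10 DMSO arrays. The fall was deeper than at 6 h by 0.71 on the log2 scale (difference of effects -0.71, SE 0.12, limma adjusted p = 0.000278).

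IFITM2 and IRF9 rose at 24 h of BRD8518. IFITM2 stood at 9.16, 9.15 and 9.21 with BRD8518, against 8.55, 8.49 and 8.52 with DMSO (1.57-fold, log2 change 0.65, SE 0.10, limma adjusted p = 2.16e-05), clear of all DMSO arrays. IRF9 stood at 7.47, 7.35 and 7.39 with BRD8518, against 7.19, 6.99 and 7.10 with DMSO (1.24-fold, 0.31, SE 0.08, limma adjusted p = 0.00698), also clear of them. The IRF9 effect was higher at 24 h than at 6 h (difference 0.49, SE 0.12, limma adjusted p = 0.00988), a call lost without BRD8518 replicate 1 at 6 h (0.45, limma adjusted p = 0.0629), while that of IFITM2 was not shown to differ (0.19, 95% interval -0.11 to 0.50, limma adjusted p = 0.522).

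The smaller calls at 24 h of BRD8518 were those of IFITM1 and IRF1. IFITM1 read 6.55, 6.35 and 6.71 with BRD8518, against 6.15, 6.10 and 6.24 with DMSO (1.29-fold, 0.37, SE 0.14, limma adjusted p = 0.0457). It lost its call when arrays were centred on their median (0.36, adjusted p = 0.0641) and without any 1 of 5 of the 6 arrays compared, all but BRD8518 replicate 2 (0.29 to 0.41). IRF1 read 5.31, 5.35 and 5.38 with BRD8518, against 5.59, 5.67 and 5.85 with DMSO (1.28-fold lower, -0.36, SE 0.11, limma adjusted p = 0.0161). All 3 arrays were below each of the 10 DMSO arrays, and the call was lost without BRD8518 replicate 1 or DMSO replicate 3 (-0.34 and -0.28). At this time all 5 genes passed, 3 higher and 2 lower, where 12.1% of all genes rose and 15.6% fell, so a call by itself said less here than at 1 h of OSM.

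Of the effects of BRD8518 at 6 h against those at 1 h, only that of IRF1 passed (-0.63, SE 0.16, limma adjusted p = 0.0172, where 6.01% of all genes passed). The call was lost without BRD8518 replicate 2 at 6 h (-0.56) and with the position letter as a term (-0.54), fits that leave 1 array in a BRD8518 group. It was also lost with the compared arrays alone (limma adjusted p = 0.098). The differences of the other 4 lay between -0.24 (USP18) and 0.42 (IFITM2). From 6 h to 24 h the effects of IRF9 and USP18 differed, as given above, where 11.1% of all genes passed, and those of IRF1 (0.12), IFITM1 (0.23) and IFITM2 (0.19) did not pass.

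Sample titles carry a position letter whose meaning the labels do not state. At 24 h every array had the letter A except DMSO replicate 3, which had B. At 1 h the OSM and DMSO arrays and BRD8518 replicate 1 had B, while BRD8518 replicates 2 and 3 had C, and all arrays at 6 h had D. For 1 h of BRD8518, a fit with the letter as a fixed term therefore rests on replicate 1 alone. So does a fit of letters A, B and D. With the letter as a term, which at 24 h gives the values within letter A, the OSM changes at 24 h were 0.47 for IRF1, 0.69 for IRF9, -0.87 for USP18, 1.94 for IFITM1 and 1.66 for IFITM2, and each still passed. The BRD8518 changes at 24 h were 0.31 for IRF9, -1.02 for USP18 and 0.65 for IFITM2, which passed. Those of IRF1 (-0.28, limma adjusted p = 0.106) and IFITM1 (0.41, limma adjusted p = 0.0703) did not.

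**Figure D3:**
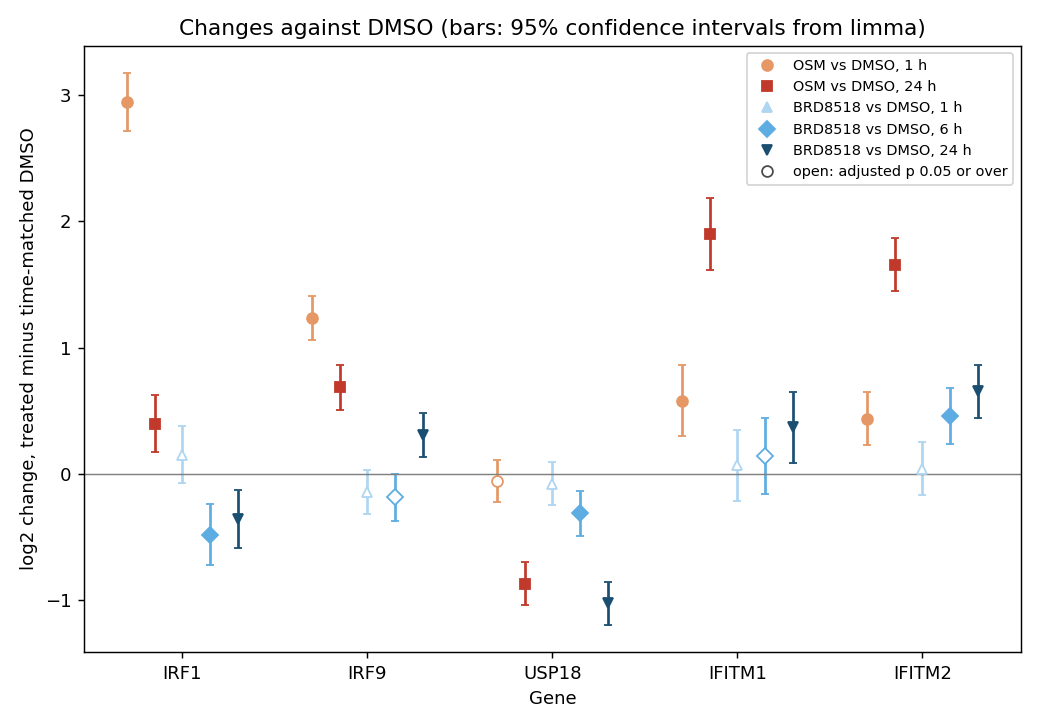
Log2 change of each of the 5 genes against time-matched DMSO, with 95% confidence intervals, under BRD8518 and OSM at each time. The largest rise is IRF1 at 1 h of OSM (2.94) and the largest fall is USP18 at 24 h of BRD8518 (-1.02).

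BRD8518 and OSM were also set directly against each other, since their comparisons with DMSO at a given time share the DMSO arrays. At 1 h, IRF1 was lower with BRD8518 than with OSM (log2 difference -2.79, limma adjusted p = 8.45e-14), and IRF9 likewise (-1.37, limma adjusted p = 1.56e-10). IFITM1 (-0.51, limma adjusted p = 0.0472) and IFITM2 (-0.39, limma adjusted p = 0.0357) were lower by margins close to the threshold. With the position letter as a term these were -0.45 and -0.46 and no longer passed (limma adjusted p = 0.496 and 0.221). The IFITM1 call was also lost without any 1 of the 6 arrays compared, and the IFITM2 call without any 1 of 5, all but BRD8518 replicate 2. The USP18 difference was -0.022 (95% interval -0.19 to 0.15). So 4 of the 5 were lower and 0 higher with BRD8518, where 1.5% of all genes were lower and 0.847% higher.

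At 24 h the same 4 genes were lower with BRD8518 than with OSM. The widest gaps were those of IFITM1 (-1.53, SE 0.14, limma adjusted p = 1.51e-08) and IFITM2 (-1.004, SE 0.10, limma adjusted p = 9.47e-08). IRF1 (-0.76, limma adjusted p = 1.42e-05) and IRF9 (-0.38, limma adjusted p = 0.00178) followed. USP18 stood at 8.43 to 8.69 with BRD8518 and at 8.65 to 8.80 with OSM, and the arrays overlapped. Its difference of -0.16 did not pass (95% interval -0.32 to 0.01, limma adjusted p = 0.199), which leaves room for a lower level with BRD8518 of up to 0.32. At this time 12.3% of all genes were lower and 10.9% higher with BRD8518. The doses, 1 uM and 100 ng/mL, are of different agents and are not matched.

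Ranked over the 8 groups, IRF1 averaged 8.54 ± 0.17 (SD, n = 3) at 1 h of OSM, clear of every other group. The next 5 groups, from 24 h of OSM (6.10 ± 0.04) down to 1 h of DMSO (5.59 ± 0.05), each overlapped their neighbour. Below them lay 24 h of BRD8518 (5.35 ± 0.04), which overlapped the lowest group, 6 h of BRD8518 (5.29 ± 0.10). IRF9 had 3 groups apart at the top, 1 h of OSM (8.28 ± 0.15), 24 h of OSM (7.78 ± 0.10) and 24 h of BRD8518 (7.40 ± 0.06), above 5 groups that overlapped their neighbours. USP18 had 5 overlapping groups at 9.59 to 9.68, then 6 h of BRD8518 (9.36) alone, then 24 h of OSM (8.73) and of BRD8518 (8.57), which overlapped.

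IFITM1 was highest at 24 h of OSM (8.07 ± 0.21), followed by 1 h of OSM and 24 h of BRD8518, which overlapped, and the other 5 groups overlapped their neighbours. IFITM2 had the same top group (10.18 ± 0.03) and then 24 h of BRD8518, 6 h of BRD8518 and 1 h of OSM, which overlapped in turn. Between the highest and lowest group mean lay 3.25 for IRF1, 1.90 for IFITM1, 1.66 for IFITM2, 1.37 for IRF9 and 1.10 for USP18, against a median of 0.35 over all genes. In DMSO the 10 arrays of all times spanned 0.57 for IRF1 and 0.65 for IFITM1, against 0.21 for IRF9, 0.25 for USP18 and 0.44 for IFITM2. With all 10 arrays the vehicle spread was thus widest for IFITM1 and IRF1. DMSO replicate 2 at 6 h, which lay apart, gave the highest IRF1 (6.10) and IFITM2 (8.85) values and the lowest IFITM1 value (5.84). Without it the vehicle values ran from 5.54 to 5.85 for IRF1, 5.98 to 6.49 for IFITM1 and 8.40 to 8.68 for IFITM2.

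IFITM1 and IFITM2, neighbours on chromosome 11, had the highest correlation of any pair of the 5 genes over the 24 arrays (r = 0.92), and IRF1 and IRF9, on chromosomes 5 and 14, came next (r = 0.84). USP18, on chromosome 22, ran opposite to IFITM2 (r = -0.74) and IFITM1 (r = -0.61). Once group means were taken out, these values were -0.098, 0.16, 0.28 and 0.18, so they describe differences between groups. The arrays share their groups, and these correlations are given as a description.

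The genes most like each of the 5 were named by their Pearson correlation over the 24 arrays. For IRF1 they were CISH (r = 0.979), a SOCS-type inhibitor of cytokine signalling, TRIM40 (0.953) and MIR146B (0.942). The CISH level averaged 7.58 at 1 h of OSM and 6.29 at 24 h, against 5.86 and 5.87 in DMSO of those times. IRF9 was most like RIPK4 (0.947), KIAA0040 (0.942) and TRIP10 (0.924). For USP18 they were DDC (0.971), the aromatic amino acid decarboxylase, MVK (0.971), the mevalonate kinase, and UPK3A (0.970). DDC averaged 6.40 at 24 h of OSM and 6.28 at 24 h of BRD8518, against 7.95 in DMSO.

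IFITM1 was most like LYVE1 (0.978), a hyaluronan receptor, NRP1 (0.953) and OSMR (0.950), a subunit of the OSM receptor. LYVE1 averaged 9.13 at 24 h of OSM, against 6.43 in DMSO. IFITM2 was most like IFITM4P (0.941), DSP (0.930) and HK1 (0.928). IFITM4P is a pseudogene of the same family with near-identical sequence, so its probe sets and those of IFITM1, IFITM2 and IFITM3 may share signal. USP18 likewise has a near-identical copy, USP41, and its signal may hold both. A correlation above 0.8 was reached by 3.21% of all genes with USP18, and by 0.228% to 0.531% with the other 4.

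**Figure D4:**
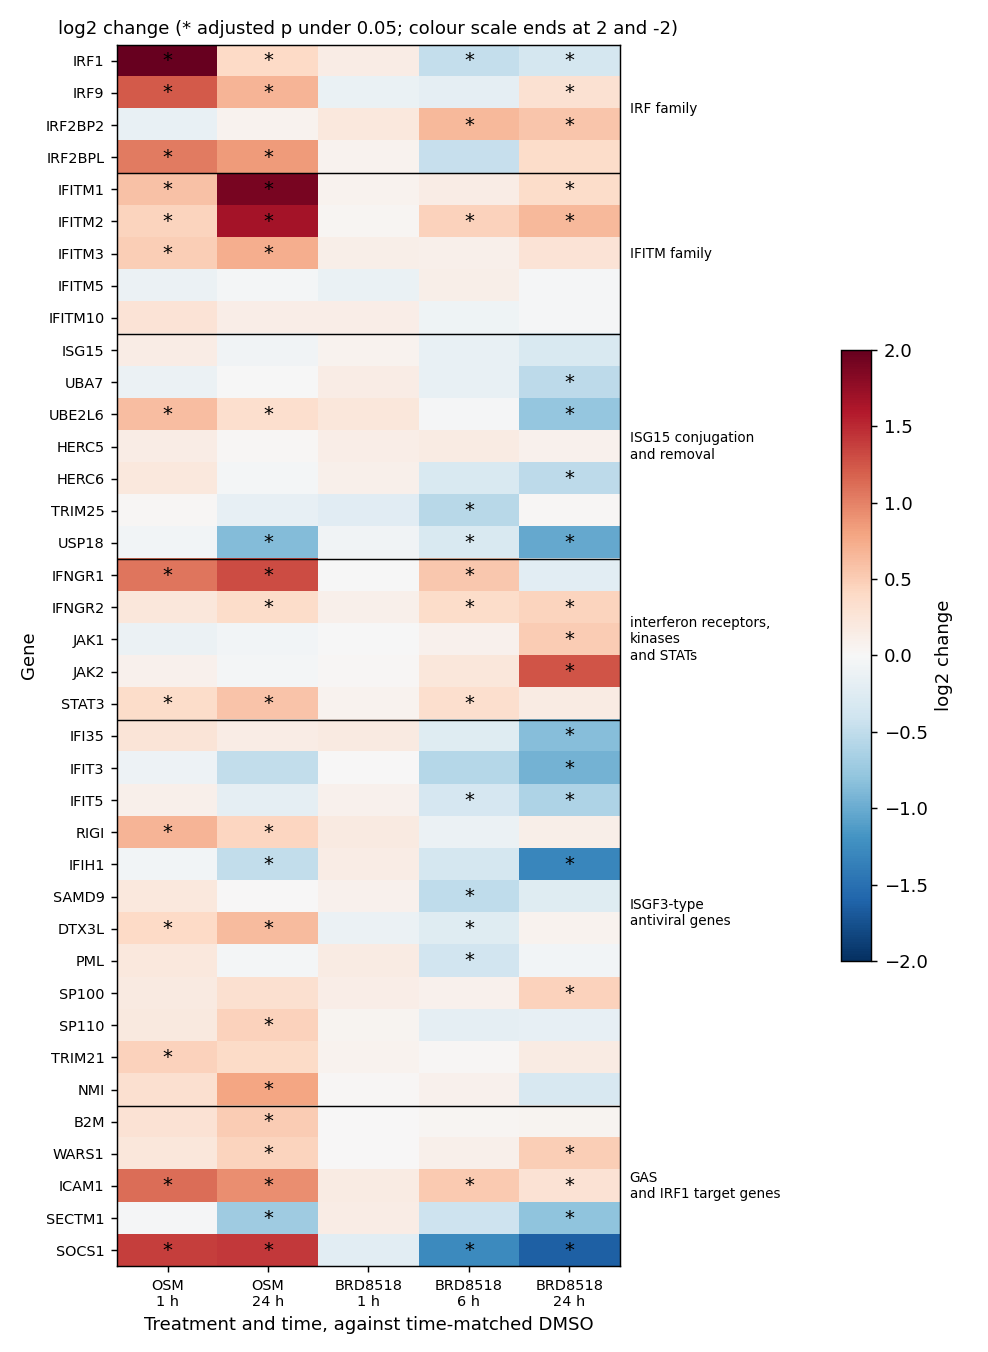
Log2 change against time-matched DMSO (colour) of the 5 genes and of measured genes of the interferon lists (rows of the grid) under OSM and BRD8518 at each time (columns of the grid). Marked cells hold a change that passed in limma. SOCS1 is higher at both times of OSM and lower at 6 h and 24 h of BRD8518.

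Other genes of the interferon system were taken from 7 lists of 123 symbols besides the 5, of which 67 were measured. None of the 10 listed ligands was among them. At 1 h of OSM, 10 of the 67 rose and 0 fell (median change 0.08, against 0.01 over all genes), and 16 higher and 0 lower had an unadjusted p under 0.05. At 24 h of OSM, 16 rose and 2 fell (5 fell without DMSO replicate 2 at 6 h, which enters the shared estimate of spread). At 1 h of BRD8518 none passed in limma, and 1 higher and 1 lower had an unadjusted p under 0.05. At 6 h of BRD8518, 5 rose and 6 fell. There the count that fell was 13 without DMSO replicate 2, 3 without BRD8518 replicate 1 (with 3 higher) and 2 without BRD8518 replicate 2. At 24 h of BRD8518, 7 rose and 13 fell. Those counts are 7.46% higher and 8.96% lower at 6 h, where 5.62% and 8.86% of all genes were, near the background. Of all genes 12.1% rose and 15.6% fell at 24 h, and there the list's lower share was 19.4%, also not far from it. Under OSM 14.9% were higher at 1 h, where 2.03% of all genes were, and 23.9% at 24 h, where 4.6% were. The lists were drawn up with earlier results of these data known, so these counts are descriptive.

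Of the 3 other measured IFITM genes, IFITM3, a relative that acts on viruses inside endosomes, rose under OSM. Its level ranged from 6.75 to 7.04 at 24 h of OSM, against 6.01 to 6.31 in DMSO (0.72, SE 0.13, limma adjusted p = 0.000678). At 1 h its change was 0.50 (limma adjusted p = 0.0445), a call that was lost without any 1 of the 6 arrays compared (0.46 to 0.53). Under BRD8518 IFITM3 did not pass, with changes of 0.11, 0.11 and 0.28 at 1, 6 and 24 h. IFITM5, known from bone, and IFITM10 did not pass in any comparison with DMSO, at changes of -0.13 to 0.28. Among the family, IFITM1 and IFITM2 therefore had the larger changes at 24 h of OSM.

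ISG15, the protein that USP18 removes, did not pass in any comparison with DMSO, and its changes were 0.14 and -0.08 at 1 and 24 h of OSM and 0.08, -0.15 and -0.30 at 1, 6 and 24 h of BRD8518. Genes that attach it did change. UBE2L6, its conjugating enzyme, ranged from 5.23 to 5.40 at 24 h of BRD8518, against 6.02 to 6.15 in DMSO (-0.77, SE 0.11, limma adjusted p = 6.78e-06). UBA7, its activating enzyme, fell with it (-0.53, limma adjusted p = 0.0018), as did HERC6 (-0.52, limma adjusted p = 0.00518), a HERC-type ligase whose call was lost without BRD8518 replicate 3 (-0.33). So 3 of the 6 measured genes of that list fell at 24 h of BRD8518, where 15.6% of all genes fell. HERC5, the main human ISG15 ligase, did not pass in any comparison with DMSO. Its mean level was low, 4.06, below the array medians of 4.89 to 4.95.

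Under OSM the list went differently. UBE2L6 rose at 1 h (0.62, SE 0.11, limma adjusted p = 0.00102), at 6.31 to 6.57 with OSM and 5.59 to 5.93 with DMSO. Its rise at 24 h was marginal (0.34, limma adjusted p = 0.0484) and was lost without any 1 of 5 of the 6 arrays compared (0.28 to 0.36). No gene of the list other than USP18 fell at 24 h of OSM, where 5.65% of all genes fell. At 6 h of BRD8518, TRIM25, a ubiquitin ligase of the RIG-I pathway, fell (-0.56, SE 0.07, limma adjusted p = 3.96e-06). Its effect was higher at 24 h than at 6 h (difference 0.58, SE 0.09, limma adjusted p = 0.000211), and it did not pass at 24 h.

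Of 6 measured receptors, kinases and STATs, IFNGR1, the ligand-binding subunit of the interferon gamma receptor, rose most under OSM. It ranged from 8.86 to 9.10 at 1 h of OSM, against 7.79 to 8.03 in DMSO (1.07, SE 0.12, limma adjusted p = 2.13e-06), and its change at 24 h was 1.30 (limma adjusted p = 7.32e-08). STAT3, the main STAT of OSM signalling, rose by 0.37 at 1 h and by 0.58 at 24 h of OSM. At 24 h of BRD8518 the kinases JAK2 (1.25, SE 0.15, limma adjusted p = 9.9e-07) and JAK1 (0.50, limma adjusted p = 2.88e-05) and the receptor subunit IFNGR2 (0.45, limma adjusted p = 0.000525) rose. At 6 h of BRD8518, IFNGR1 (0.54, limma adjusted p = 0.00425), IFNGR2 (0.37) and STAT3 (0.34) rose. The IFNGR1 effect was lower at 24 h than at 6 h (difference -0.76, SE 0.17, limma adjusted p = 0.00519), and IFNGR1 did not pass at 24 h. None of the 6 genes of that list fell in any comparison with DMSO. The largest share of all genes that fell in such a comparison was 15.6%, at 24 h of BRD8518.

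SOCS1, an inhibitor of JAK kinases and a classic STAT target, moved in opposite directions under the agents. It ranged from 8.82 to 8.91 at 1 h and 8.85 to 9.15 at 24 h of OSM, and from 6.35 to 6.39 at 6 h and 5.90 to 6.07 at 24 h of BRD8518. The DMSO arrays lay between, at 7.43 to 8.12. It rose at 1 and 24 h of OSM (changes of 1.39 and 1.41) and fell at 6 and 24 h of BRD8518 (-1.28 and -1.63, limma adjusted p from 1.78e-09 to 7.76e-07). ICAM1, an adhesion molecule that interferon gamma induces, rose under both, by 1.12 and 0.93 at 1 and 24 h of OSM and by 0.52 and 0.29 at 6 and 24 h of BRD8518. B2M, the light chain of MHC class I, rose by 0.50 at 24 h of OSM. SECTM1 fell at 24 h of both OSM (-0.71) and BRD8518 (-0.80).

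Among 29 measured antiviral genes of the type that ISGF3 drives, 3 rose at 1 h of OSM, where 2.03% of all genes rose. By 24 h 5 rose and 1 fell, where 4.6% of all genes rose and 5.65% fell. RIGI, a sensor of viral RNA, rose at 1 h (0.69, SE 0.10, limma adjusted p = 8.54e-05). NMI (0.78, limma adjusted p = 0.000149) and DTX3L (0.64, limma adjusted p = 3.44e-06) were the leading genes at 24 h. IFIH1, another RNA sensor, fell at 24 h of OSM (-0.49, limma adjusted p = 0.00848). At 24 h of BRD8518, 1 of the 29 rose and 8 fell, where 12.1% of all genes rose and 15.6% fell. The falls were led by IFIH1 (-1.30, limma adjusted p = 1.65e-08), IFIT3 (-0.94, limma adjusted p = 4e-04) and IFI35 (-0.84, limma adjusted p = 4.64e-08). The gene that rose was SP100 (0.46, limma adjusted p = 0.00474). IFIT3 had a low mean level, 4.26, below the array medians of 4.89 to 4.95. Some of the 29, such as IFI44 (2.04) and IFIT1 (3.60), lay lower still, so a change there may be missed. Of the 9 other measured genes of the IRF family list, IRF2, IRF3, IRF4, IRF5, IRF7, IRF8 and IRF2BP1 passed in no comparison with DMSO. The 2 that passed are named for IRF2-binding proteins and are not IRFs themselves. IRF2BPL rose under OSM (1.04 at 1 h and 0.85 at 24 h) and IRF2BP2 rose under BRD8518 (0.65 at 6 h and 0.56 at 24 h). With another of its probe sets the IRF2BP2 changes were 0.29 and 0.38 and did not pass.

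Markers moved along with some of these results. The summed log2 level of the 10 hepatocyte markers was 109.6 to 110.3 at 24 h of OSM and 106.7 to 107.8 at 24 h of BRD8518, against 110.4 to 110.9 in DMSO. Of these markers, 5 fell and 1, FGB (1.51), rose at 24 h of OSM, where 5.65% of all genes fell and 4.6% rose. With BRD8518 for 24 h, 6 fell and 0 rose, where 15.6% of all genes fell and 12.1% rose. Of 13 markers of other cell types 7 were measured, and their sum was 47.3 to 48.0 at 24 h of OSM and 47.4 to 47.8 at 24 h of BRD8518, against 46.3 to 46.7 in DMSO. Of these 7, 3 rose and 1 fell at 24 h of OSM, and 1 rose at 24 h of BRD8518. CD68, a lysosomal protein abundant in macrophages, rose at 24 h of BRD8518 (1.19) and of OSM (0.34). CD14 rose at 1 h (0.78) and 24 h (0.74) of OSM. At 24 h of OSM, SOX9 also rose (0.21) and PECAM1 fell (-0.43). CSF1R (0.008), VWF (0.06) and KRT7 (0.22) did not pass there. Defining markers such as PTPRC, CD3E and COL1A1 were not named here. The part of these shifts in the changes of the 5 genes was not tested.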

How the data were processed

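RNA of HepG2 cells was measured on whole-transcript arrays in 24 samples. The deposited log2 values had been made by the authors with RMA in oligo, per the submitters' processing notes. RMA corrects background, brings arrays to 1 distribution and summarises probes, so a shift of all genes together cannot be seen. Software versions and the build of the probe sets are not stated in the labels or headers used. Array medians were 4.89 to 4.95 and values 0.913 to 13.7. Of 53617 probe sets, 16098 had 1 symbol in the platform annotation, 0 had several and 37519 are unnamed here. For each of 14884 genes the probe set with the highest mean was used (779 genes had more than 1, and each of the 5 genes had 1).

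limma 3.58.1 in R 4.3.3 fitted 8 group means to all 24 arrays (lmFit, eBayes), tested 10 contrasts two-sided and adjusted p over all genes of a contrast by Benjamini-Hochberg, with 0.05 as the threshold. The fit was tested on simulated data. Groups were taken from sample titles. The genes named are the 5, up to 3 per interferon list and direction past the threshold against DMSO, all measured IFITM and ISG15 list genes, and the 3 genes most correlated with each of the 5. Members and lists were chosen with earlier results of these data known. Alternatives were other normalizations, moderation, array weights, probe set summaries, gene filters, the position letter in the titles, fits of the compared arrays alone and leaving out single arrays. Promoter sequences are RefSeq's, on GRCh38.p14, searched on both strands with Python 3.11.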

Additional observations from a re-analysis of the deposited data

Results flagged for a closer look

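IRF1 on DMSO replicate 2 at 6 h, 6.10, lay far from the other 3 arrays of its group (gap to the nearest over the group's range 0.862, past the limit of Dixon's test for 4 values); chance gives such a gap in about 1 in 20 groups. Without that array the change at 6 h of BRD8518 was -0.37 and still passed in limma.

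The effect of OSM differed between 24 h and 1 h for each of the 5 genes, in the limma test of the difference itself. The difference on the log2 scale was -2.55 for IRF1, -0.55 for IRF9, -0.81 for USP18, 1.32 for IFITM1 and 1.22 for IFITM2. The effect of BRD8518 passed that test between 24 h and 6 h for USP18 (-0.71) and IRF9 (0.49), though for IRF9 not without BRD8518 replicate 1 at 6 h (0.45, limma adjusted p = 0.0629). Between 6 h and 1 h it passed for IRF1 (-0.63), but not with the compared arrays alone (limma adjusted p = 0.098). It also did not pass without BRD8518 replicate 2 at 6 h or with the position letter as a term, fits that leave 1 array in a BRD8518 group.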

How the results depend on the processing

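Over all alternatives, 975 refits of the 5 genes kept direction and side of the threshold in 906 cases, lost a call in 52 and gained one in 3. The sign changed in 14, none of them a called value. The changes of IRF1 and IRF9 at 1 h of OSM, of IRF9, USP18, IFITM1 and IFITM2 at 24 h of OSM, and of IRF9, USP18 and IFITM2 at 24 h of BRD8518 passed under every alternative run. The cause of the changes below was not tested, except that fits of fewer arrays have fewer degrees of freedom. No depth is known for arrays. No paired analysis was possible because the labels carry no replicate numbers shared across groups.

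IFITM1 at 24 h of BRD8518 did not pass with median centring (0.36, limma adjusted p = 0.0641), every probe set fitted on its own (0.37, 0.0958), the position letter as a fixed term (0.41, 0.0703) or letters A, B and D alone (0.37, 0.0594), and leaving out single arrays gave 0.29 to 0.46. BRD8518 against OSM at 1 h did not pass for IFITM1 with centring (-0.50, 0.0733) or single probe sets (-0.51, 0.0828), and single arrays gave -0.55 to -0.44. For IFITM2 it did not pass with quantile normalization (-0.39, 0.0731), the compared arrays alone (-0.39, 0.145) or single probe sets (-0.39, 0.064), and single arrays gave -0.49 to -0.31. Neither gene passed there with the letter as a fixed term (-0.45 for IFITM1, -0.46 for IFITM2) or letters A, B and D alone. Those fits leave 1 BRD8518 array at 1 h. With the compared arrays alone, IRF1 (-0.48, 0.202), USP18 (-0.31, 0.211) and IFITM2 (0.46, 0.173) did not pass at 6 h of BRD8518. Single arrays gave -0.55 to -0.37, -0.36 to -0.26 and 0.38 to 0.54. IRF1 at 24 h of BRD8518 was -0.28 (0.106) with the letter as a term and -0.41 to -0.28 without single arrays. Without single arrays, IRF1 at 24 h of OSM was 0.34 to 0.47, IFITM1 at 1 h of OSM 0.48 to 0.65 and IFITM2 at 1 h of OSM 0.35 to 0.49.

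Among differences between times, that of IRF1 from 1 h to 6 h of BRD8518 did not pass with the compared arrays alone (-0.63, 0.098). Nor did it with the letter as a term (-0.54) or letters A, B and D (-0.54), which leave 1 BRD8518 array at 1 h. Single arrays gave -0.70 to -0.52, with the call lost without BRD8518 replicate 2 at 6 h. That of IFITM2 passed with array weights (0.46, 0.0152) and was 0.34 to 0.51 without single arrays. That of IRF9 from 6 h to 24 h was 0.44 to 0.54 without single arrays, with the call lost without BRD8518 replicate 1 at 6 h. Values near 0 changed sign: IFITM1 from 1 h to 6 h of BRD8518 (-0.053 with array weights, -0.043 to 0.18 without single arrays), IRF9 there (0.0056 with the letter as a fixed term or letters A, B and D alone, -0.084 to 0.020), IFITM2 at 1 h of BRD8518 (-0.020, -0.050 to 0.11), IFITM1 there (-0.037 to 0.13) and USP18 in BRD8518 against OSM at 1 h (0.0087, -0.067 to 0.034).

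Interferon list genes at 6 h of BRD8518 numbered 1 higher and 2 lower with the compared arrays alone, 14 lower with array weights, and 3 to 6 higher and 2 to 13 lower without single arrays. With array weights 6 were lower at 24 h of OSM (2 to 5 without single arrays) and 1 at 1 h of BRD8518. Over all genes, calls against DMSO at 1 and 24 h of OSM and 1, 6 and 24 h of BRD8518 numbered 423, 1526, 38, 2155 and 4122. Array weights gave 1125, 3068, 81 and 3466 for the first 4, and fitting every probe set gave 868, 2308, 80, 4008 and 7370. Leaving out DMSO replicate 2 at 6 h gave 806, 2535, 76 and 3345 for the first 4, and the compared arrays alone gave 452 at 6 h. At 1 h of BRD8518 the letter as a fixed term gave 15, letters A, B and D alone gave 15, and the letter as a random block gave 53. Leaving out other single arrays gave 274 at 1 h of OSM (DMSO replicate 3), 25 at 1 h of BRD8518 (its replicate 2), and 1349 and 1208 at 6 h of BRD8518 (its replicates 1 and 2). BRD8518 against OSM gave 349 at 1 h and 3458 at 24 h, against 934 and 5286 with array weights and 817 and 5845 with every probe set. At 1 h it gave 183 with the letter as a fixed term, 195 with letters A, B and D alone and 413 with the letter as a random block. It gave 716 there without DMSO replicate 2 at 6 h and 224 without OSM replicate 3. Differences between times (OSM 24 h minus 1 h, BRD8518 6 h minus 1 h and 24 h minus 6 h) numbered 502, 895 and 1649. They were 828, 327 and 875 with the compared arrays alone, 1324, 1989 and 2866 with array weights, and 1100, 1898 and 2741 without DMSO replicate 2 at 6 h. BRD8518 6 h minus 1 h gave 401 with the letter as a fixed term, 403 with letters A, B and D alone and 981 with the letter as a random block. It gave 558 and 498 without its 6 h replicate 1 or 2, and 24 h minus 6 h gave 1018 without replicate 2.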
